A study of Mus musculus with 4 samples.

Results

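Whether cDNA and antisense RNA (aRNA) targets gave the same picture of a gene was examined in the 1856 genes that the array read with 3 or more probe sets of sufficient signal. A probe set is a pool of short DNA probes whose signals are summarised as 1 intensity. These genes were chosen by the number of their probe sets whose mean over the 4 arrays reached 8.5 on the log2(intensity + 16) scale. The mean spans both targets, so a gene can pass through only the target in which it is high. Pcp2, which averaged 6.66 on aRNA, and Srd5a3, which averaged 7.61 on cDNA, are such genes. The choice is therefore not independent of the difference between the targets. They are 1856 of the 11748 genes with at least 1 such probe set, and hold 6599 of the 21901 probe sets that passed. A further 3052 genes had 2 such probe sets and 6840 had 1.

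Total RNA of the brain, the hindbrain and the spinal cord of mice was the source for all 4 Affymetrix arrays. A Nugen kit amplified it into cDNA for 2 arrays, titled N0 and N1 and called cDNA arrays 0 and 1 here. The other 2, titled R0 and R1 and called aRNA arrays 0 and 1, received aRNA made by T7-based amplification. The labels give no strain, age, sex or number of animals, and do not say what the numbers 0 and 1 stand for or whether both preparations started from the same RNA, so the preparation and the RNA source cannot be told apart. Each p-value measures only the spread between these arrays, which may be technical in part. The 2 aRNA arrays also differed from each other in sex-linked transcripts, as given below.

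In T7-based amplification, a primer that carries a T7 promoter and a run of T bases starts cDNA synthesis at the poly(A) tail, and T7 RNA polymerase then transcribes many antisense RNA copies. A Nugen kit gives amplified cDNA in place of RNA. The array's probes are DNA, so a cDNA target forms DNA-DNA duplexes on the array and an aRNA target forms RNA-DNA duplexes. Different probe sets of a gene can lie at different distances from the poly(A) tail, match different transcript isoforms, or share probes with related genes. A probe set whose name ends in _s_at or _x_at holds probes that match more than a single transcript.

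The deposited intensities had a 2% trimmed mean of 2500.02 on each array, and their median was 372 and 386 with cDNA against 338 and 342 with aRNA. Background, taken as the 95th percentile of 27 Bacillus control probe sets, was 7.83 and 8.05 on the log2 scale with cDNA (arrays 0 and 1) against 7.12 and 7.15 with aRNA. Between 0.803% and 2.94% of the 6599 probe sets lay under it on an array. aRNA array 0 stood apart in sex-linked transcripts. Xist, the noncoding RNA that silences an X chromosome in females, read 13.8 and 13.99 on cDNA arrays 0 and 1, 4.38 on aRNA array 0 and 8.89 on aRNA array 1 with probe set 1427263_at. With 1427262_at it read 12.33, 12.12, 5.25 and 13.95 in that order, and with 1436936_s_at 11.94, 12.51, 8.55 and 15.44, so aRNA array 1 lay above cDNA with these and below it with the first. The Y-linked gene Eif2s3y read 7.92 and 4.75 on the cDNA arrays, 13.12 on aRNA array 0 and 6.79 on aRNA array 1 with probe set 1417210_at.

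For each gene and array, 1 gene value was formed as the median over its probe sets, each first centred on its own mean over the arrays. The size of a difference is the median of the gene's probe set differences, always cDNA minus aRNA on the log2 scale. limma's moderated test with Benjamini-Hochberg adjustment over all 11748 genes called 262 of the 1856 genes higher and 384 lower on cDNA, and 1210 were not called. That is 14.1% higher and 20.7% lower, where the background over all genes was 17.6% higher and 22.4% lower (39.9% in either direction, against 34.8% of the 1856). With each array centred on its median, the share of the called genes that were higher fell from 40.6% to 30.4%, and the median of all genes moved from -0.11 to -0.26. Without aRNA array 0, the array that stood apart, 243 genes were called lower. The gene values of the 2 preparations did not overlap in 1318 of the 1856 genes (71%), against 72.4% of all genes. At an unadjusted p under 0.05 the count was 829.

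The probe sets of a gene differed from each other by more than the gene differed between the targets. The median size of a gene's difference was 0.63, and the median SD among its probe sets was 1.1, with quartiles of 0.68 and 1.64. The SD exceeded the size of the gene's own median in 1311 genes (70.6%). In 1346 genes the probe sets took both signs, in 193 every probe set was higher on cDNA and in 317 every probe set was lower. Of the 646 called genes, 314 had every probe set in 1 direction.

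The variance of the 6599 probe set differences lay mostly within genes. Variance components gave an SD of 0.67 between genes and 1.5 among the probe sets of a gene, so 16.7% of the variance was between genes. The difference between the 2 aRNA arrays had an SD of 0.38 between genes and 0.49 within genes (37.8% between genes). That of the 2 cDNA arrays had 0.27 and 0.64 (14.6%). A single cDNA array minus a single aRNA array had a within-gene SD of 1.57 in the pair numbered 0 and 1.54 in the pair numbered 1, larger than between arrays of either target. When probe sets ending in _s_at or _x_at, which can share probes, were left out, 7.3% of the variance between the targets was between genes.

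The deviations of single probe sets from their gene recurred in both array pairs. Across the 6599 probe sets, the deviation from the gene median in cDNA array 0 minus aRNA array 0 correlated with that in cDNA array 1 minus aRNA array 1 at r = 0.838. The gene medians of the 2 pairs correlated at r = 0.789 over the 1856 genes. These correlations are descriptions across probe sets and genes, which share arrays, probes and target and are not independent replicates.

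**Figure D1:**
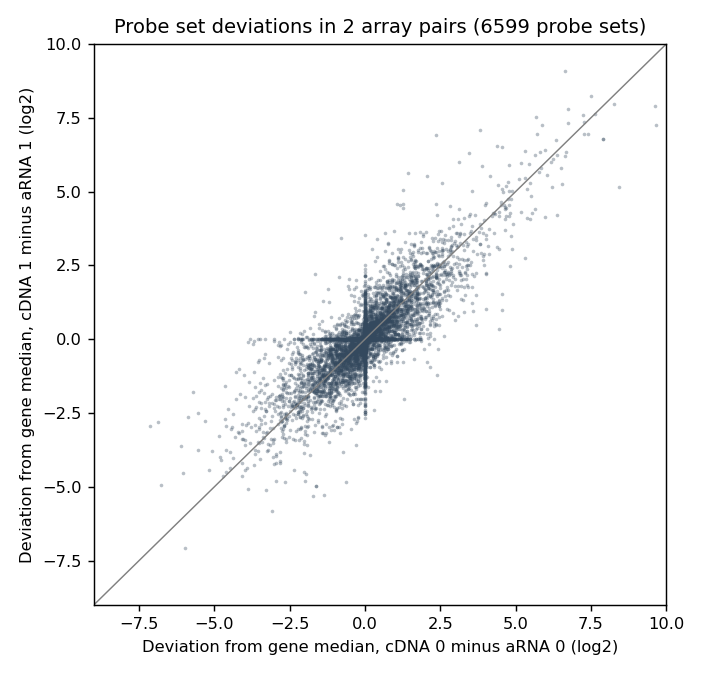
Each of the 6599 points is a probe set. Both axes give its deviation from the median difference of its gene (log2), on the x axis from cDNA array 0 minus aRNA array 0 and on the y axis from cDNA array 1 minus aRNA array 1. The grey line marks equal values, and the points follow it (r = 0.838); points on the lines at 0 are probe sets that are themselves the median of their gene.

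The genes were sorted by the pattern of their probe sets. A gene was gene-wide where every probe set differed by at least 1 in the same direction. It was opposed where at least 1 probe set stood at 1 or above and at least 1 at -1 or below. A single probe set effect meant exactly 1 probe set at 2 or more in size and every other under 1, and a level gene had every probe set under 1. By these rules 42 genes (2.26%) were gene-wide higher, 35 (1.89%) gene-wide lower, 435 (23.4%) opposed, 208 had a single probe set effect (106 higher, 5.71%, and 102 lower, 5.5%), 291 (15.7%) were level and 845 (45.5%) fell in none of these. Over all 21901 probe sets, 21% stood at 1 or above, 23.4% at -1 or below and 15.6% at 2 or more in size.

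The same sorting of the difference between the 2 arrays of a preparation gave 46 opposed and 1208 level genes for cDNA, and 9 opposed and 1452 level genes for aRNA. The array pairs numbered 0 and 1, taken alone, gave 468 and 479 opposed genes, of which 306 were opposed in both. With each array centred on its median, 59 genes were gene-wide lower.

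**Figure D2:**
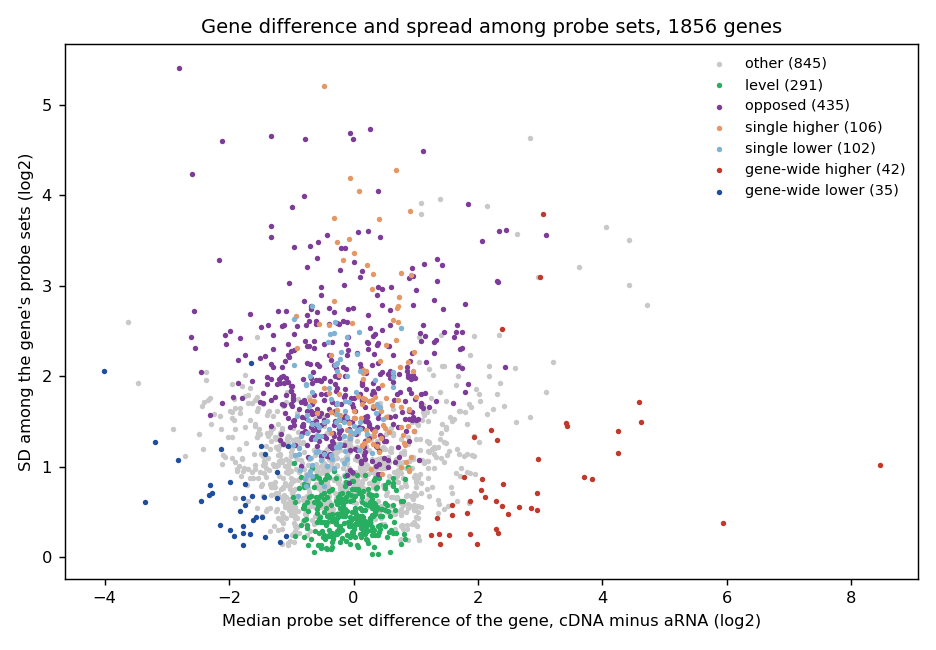
Each point is 1 of the 1856 genes. The x axis gives the median of its probe set differences (cDNA minus aRNA, log2) and the y axis the SD among them (log2); colours mark the patterns, with the number of genes. Gene-wide genes lie to the sides, opposed and single probe set genes lie high over small medians, and the 291 level genes lie low at the centre.

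The 42 gene-wide higher genes had a median size of 2.36 and a smallest size of 1.25, and 11 of them had 4 or more probe sets. In 34 of the 42 every probe set was itself called. Since the pattern was read from the same contrast as the test, the tests beside these genes describe them and add no support. In 25 of the 42 every probe set also reached 1 in both array pairs. Dimmer probe sets that had not passed the level were 38 in number, and 18 of the 29 that exceeded background on at least 1 array lay on the same side.

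The largest was Ttr, transthyretin, a carrier of thyroxine and retinol that the choroid plexus secretes in large amounts. Its gene value was 15.85 and 16.92 with cDNA, arrays 0 and 1 in that order here and below, and 7.5 and 8.12 with aRNA. Its 4 probe sets differed by 7.88 to 10.2, with a median of 8.46 (SE of the gene test 0.38, adjusted p = 2.31e-05 by limma). With 1451580_a_at, which was under background on both aRNA arrays, the difference was at least 515-fold. Both cDNA arrays lay above both aRNA arrays with every probe set.

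Pcp2, Purkinje cell protein 2, read 11.23 and 13.91 on cDNA and 7.1 and 6.21 on aRNA. Its 3 probe sets lay close together, from 5.89 to 6.57. Each was under background on at least 1 aRNA array, and with those values raised to background the median probe set gave at least 46.2-fold. The 2 cDNA arrays themselves lay far apart in this gene, though both lay above both aRNA arrays. Cbln1, cerebellin 1 of cerebellar granule cells and the other gene of the cerebellum and hindbrain list with 3 probe sets, was gene-wide higher too, with a median of 2.31 and a range of 1.99 to 4.38; it is named after its values were seen.

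Several of the others code for matrix or cytoskeletal proteins. Vim, vimentin, the intermediate filament of mesenchymal cells and glial progenitors, read 15.06 and 14.23 on cDNA and 9.25 and 10.78 on aRNA, with a median of 4.63. Fmod, fibromodulin, a collagen-binding proteoglycan, read 13.48 and 11.84 against 9.05 and 7.86, and its 6 probe sets ranged from 3.34 to 6.08, both of the highest being under background on aRNA array 1. Bgn, biglycan of the same proteoglycan family, read 13.6 and 11.39 against 8.56 and 9.4. In Fmod and Bgn cDNA array 0 lay above cDNA array 1, the reverse of Ttr and Pcp2, and no value of the 2 targets overlapped. Mmrn2, multimerin 2 of the endothelial matrix, read 12.68 and 10.37 against 7.89 and 8.34 (median 3.41). Without cDNA array 0, 1439518_at no longer reached the level, and the median of the remaining probe sets was 1.45. Probe set 1420276_x_at read 9.41 on cDNA array 1 against 8.58 and 8.97 on aRNA.

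The remaining genes of the 10 largest had other roles. Sntb1, the dystrophin-binding adaptor syntrophin beta 1, read 10.84 and 11.64 on cDNA and 7.69 and 5.63 on aRNA. All 4 of its probe sets were under background on aRNA array 1, and the median with those values raised to background was at least 14.3-fold. Ecrg4, which codes for a secreted peptide precursor, read 10.62 and 12.8 against 7.78 and 6.06 (at least 13.7-fold). Each probe set of Ecrg4 was under background on aRNA array 1 as well, so the values there are bounds and not levels. The choice of named genes required both cDNA arrays to lie above both aRNA arrays in gene value.

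Csdc2, a cold shock domain RNA-binding protein, had the tightest arrays of the 10, at 14.8 and 14.56 against 10.75 and 11 (SE 0.23). Cplx2, complexin 2, which binds the SNARE complex at synapses, read 11.62 and 12.82 against 8.74 and 9.26. Its probe sets ranged from 1.2 to 3.93. Without cDNA array 1, 1436383_at no longer reached the level, and the median of the remaining probe sets was 2.13. Of the cell type and family lists, Gja1 (connexin 43, the main astrocyte gap junction protein), Slc2a1 (the glucose transporter GLUT1) and Kcnq1ot1 were also gene-wide higher, with medians of 2.12, 2.95 and 2.39. Kcnq1ot1 is an antisense noncoding RNA that entered the channel list by its symbol and codes for no channel.

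**Figure D3:**
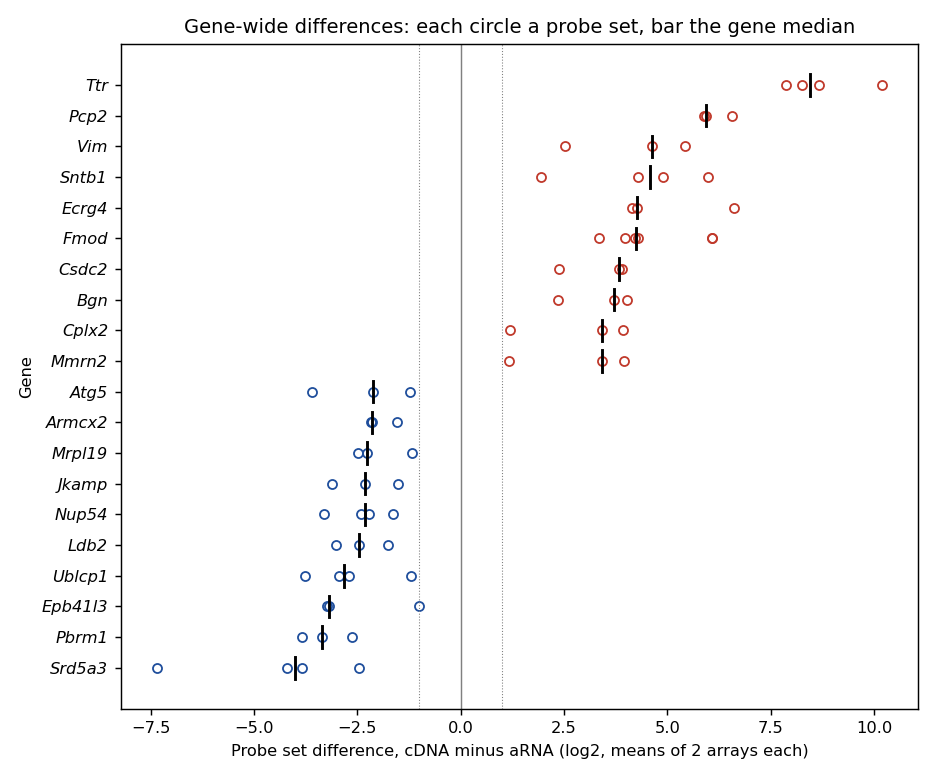
Probe set differences (cDNA minus aRNA, log2, x axis) of the 10 genes with the largest median in each direction among gene-wide genes (y axis). Circles are probe sets, the black bar is the gene median and dotted lines mark 1 and -1. Ttr stands at 7.88 to 10.2, and the lower genes reach from -1.01 in Epb41l3 to -7.35 in Srd5a3.

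Marker genes of several cell types were also higher on cDNA, and their part in the gene-wide differences was not tested. Each list was counted over its genes with at least 1 probe set that passed, for which the background over all genes is 17.6% higher and 22.4% lower. The level is a mean over the 4 arrays, so a dim marker can pass only through the target in which it is high. Kcne2 (mean 8.6, difference 4.73), S100a9 (mean 8.91, difference 7.79) and Pcp2 passed through cDNA in this way. Counts of dim markers lean toward called genes by this choice and are descriptions. For the choroid plexus, 3 of 4 genes passed as higher and none as lower, and their summed intensity was 104000 and 174000 with cDNA against 1790 and 1300 with aRNA; Folr1, Kl, Aqp1, Sostdc1, Otx2 and Slc4a5 did not pass the level. All 7 cerebellum and hindbrain genes that passed the level were called higher (sums of 51700 and 136000 against 3900 and 2390). En1, Hoxb5 and Hoxc6 of this list did not pass it. The sums moved between the cDNA arrays as Pcp2 did, being larger on array 1.

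Among the 12 meningeal and fibroblast genes, 9 passed as higher and 1 as lower (sums of 95500 and 48300 against 47000 and 25900). Smooth muscle and pericyte genes were called higher in 5 of 8 (95900 and 45800 against 16900 and 17700) and endothelial genes in 3 of 6 (31600 and 14600 against 7230 and 6810), with none lower in either. These sums were larger on cDNA array 0, as in Fmod, Bgn and Mmrn2. Cnn1 and Des of smooth muscle and Pecam1, Cdh5, Kdr and Emcn of endothelium did not pass the level. GABAergic and glycinergic genes were called higher in 5 of 6.

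In the other lists the counts were as follows. Of 12 pan-neuronal genes 3 were called higher and 2 lower (sums of 791000 and 906000 against 758000 and 843000), of 9 astrocyte genes 3 and 1, of 11 oligodendrocyte genes 2 and 4, of 5 glutamatergic genes 2 and none (sums of 21000 and 36200 against 10200 and 6830), and of 10 microglial genes none and 1 (sums of 49500 and 80200 against 13300 on aRNA array 0 and 84700 on aRNA array 1). The 3 neutrophil genes Ngp, S100a8 and S100a9 were called higher, while Camp of neutrophils and Hba-a1 and Alas2 of red cells did not pass the level. Slc17a7, Neurod6 and Tbr1 of the glutamatergic list and Itgam and Trem2 of the microglial list did not pass it either. In such bulk RNA, fewer cells of a type and less RNA per cell cannot be told apart. Neither can be told apart from the target preparation here.

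The 35 gene-wide lower genes had a median size of 1.77 and a smallest of 1.06, and 6 had 4 or more probe sets. In 29 every probe set was called, and in 16 every probe set reached -1 in both array pairs. Srd5a3, an enzyme of dolichol synthesis, read 7.75 and 7.48 on cDNA and 11.93 and 11.37 on aRNA. Its 4 probe sets ranged from -7.35 to -2.47, the lowest, 1456691_s_at, being under background on both cDNA arrays (at least 22.4-fold lower). On cDNA 3 of the 4 were under background on at least 1 array, and the median with those raised to background gave at least 14-fold in favour of aRNA.

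Pbrm1, the polybromo subunit of the PBAF chromatin remodelling complex, read 9.88 and 10.02 on cDNA and 13.29 and 12.98 on aRNA. Its 3 probe sets stood at -2.63, -3.85 and -3.35, each above background on every array (SE of the gene test 0.27, adjusted p = 0.000121 by limma). The 2 arrays of each target lay close together, and the targets did not overlap.

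Epb41l3, a membrane skeleton protein of the 4.1 family, read 11.02 and 10.44 against 13.6 and 13.86. Of its probe sets, 1419062_at and 1440595_at stood at -3.23 and -3.19 and 1426010_a_at at -1.01, just past the limit. On both cDNA arrays 1440595_at was under background, so that it was lower by at least 5.01-fold. Without aRNA array 0, 1440595_at no longer reached the level, and the median of the remaining probe sets was -1.99. Ublcp1, a phosphatase of the nuclear proteasome, read 10.42 and 10.32 against 13.67 and 12.71, and Ldb2, a LIM domain binding cofactor, 9.88 and 9.97 against 12.27 and 12.16. In both the cDNA arrays lay nearly level with each other.

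Nup54, a nuclear pore protein, read 10 and 10.05 against 12.42 and 12.27, and its 4 probe sets ranged from -3.3 to -1.64. Jkamp, a membrane protein of the endoplasmic reticulum, read 13.13 and 12.4 against 15.09 and 15.05. The last 3 of the 10 were Mrpl19 of the mitochondrial ribosome (median -2.28), the X-linked Armcx2 (-2.15) and Atg5, needed to form autophagosomes (-2.13). No list had a gene-wide lower member.

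The other gene-wide genes of both directions were smaller. Of 24 dimmer probe sets of the lower genes, 21 exceeded background on at least 1 array and 13 of these lay on the same side.

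The 208 single probe set genes showed how far 1 probe set could stray from its gene. The single probe set was higher in 106 genes, with a median of 2.81 and 28 at 4 or more, and lower in 102, with a median of -2.55 and 9 at -4 or below. In 206 of the 208 the same probe set had the largest difference in both array pairs. The pattern was read from the mean of these same pairs, so this was largely fixed by the choice and adds no support. The gene test called 28 of the 208, against 34.8% of the genes with 3 or more probe sets. The rule keeps every other probe set under 1, so a low count was largely fixed by the choice too.

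The farthest was 1449739_at of Ptdss1, phosphatidylserine synthase 1, which read 15.85 and 15.39 on cDNA and 6.9 and 7.75 on aRNA, a difference of 8.29. aRNA array 0 was under background there, and the difference was at least 291-fold. The other 2 probe sets of Ptdss1 stood at -0.48 and -0.94. The gene value, 13.09 and 13.4 against 13.73 and 13.68, therefore differed little and the other way (adjusted p = 0.116 by limma). With the mean over probe sets in place of the median, the gene was called (adjusted p = 0.000221 by limma).

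Atp5a1, the alpha subunit of mitochondrial ATP synthase, showed the same shape. Probe set 1420037_at read 16.66 and 16.79 on cDNA and 9.33 and 9.9 on aRNA. Probe set 1423111_at read 15.42 and 15.32 against 15.48 and 15.38, and 1449710_s_at read 15.97 and 16.18 against 16.21 and 16.39. Only the first separated the targets by more than 1, and it did so by 7.11. Atp6v1e1, a subunit of the vacuolar proton pump, had 1420038_at at 7.1 and its other 3 probe sets between -0.56 and -0.22.

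Etf1, the release factor that ends translation, had 1449701_at at 7.33 and 4 others between -0.84 and 0.72. That probe set was under background on both aRNA arrays, which gives at least 73.7-fold. Tmsb10, the actin-binding thymosin beta 10, had 1417219_s_at at 7.8 and the others at 0.68 and 0.12. By the rule, every other probe set of these 5 genes differed by less than 1.

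The single probe sets that were lower on cDNA strayed less far. In Adcy9, an adenylyl cyclase, 1418586_at read 8.76 and 6.93 on cDNA and 11.96 and 12.55 on aRNA, and the other 3 stood between -0.58 and 0.94. In G3bp2, a stress granule protein, 1421323_a_at read 11.01 and 11.29 against 16.02 and 16.05, a difference of -4.88, while the others stood at -0.66 and 0.35. Only the first of these was under background on an array, cDNA array 1, and was lower by at least 14.4-fold.

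Tns1, the focal adhesion protein tensin 1, had 1419283_s_at at -3.5 and the others at 1 and 0.76. Dpysl3, which acts in axon growth, had 1415877_at at -4.01 and the others at -0.29 and 0.99. Hspa5, the chaperone BiP of the endoplasmic reticulum, had 1447824_x_at at -4.4 and the others at -0.95 and 0.78. The test on gene values called G3bp2 and Hspa5 lower (adjusted p = 0.0327 and 0.008 by limma) and not the other 3. The call of G3bp2 was lost without cDNA array 1 (adjusted p = 0.157 by limma), without aRNA array 0 (0.126) and without an intensity trend (0.11).

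**Figure D4:**
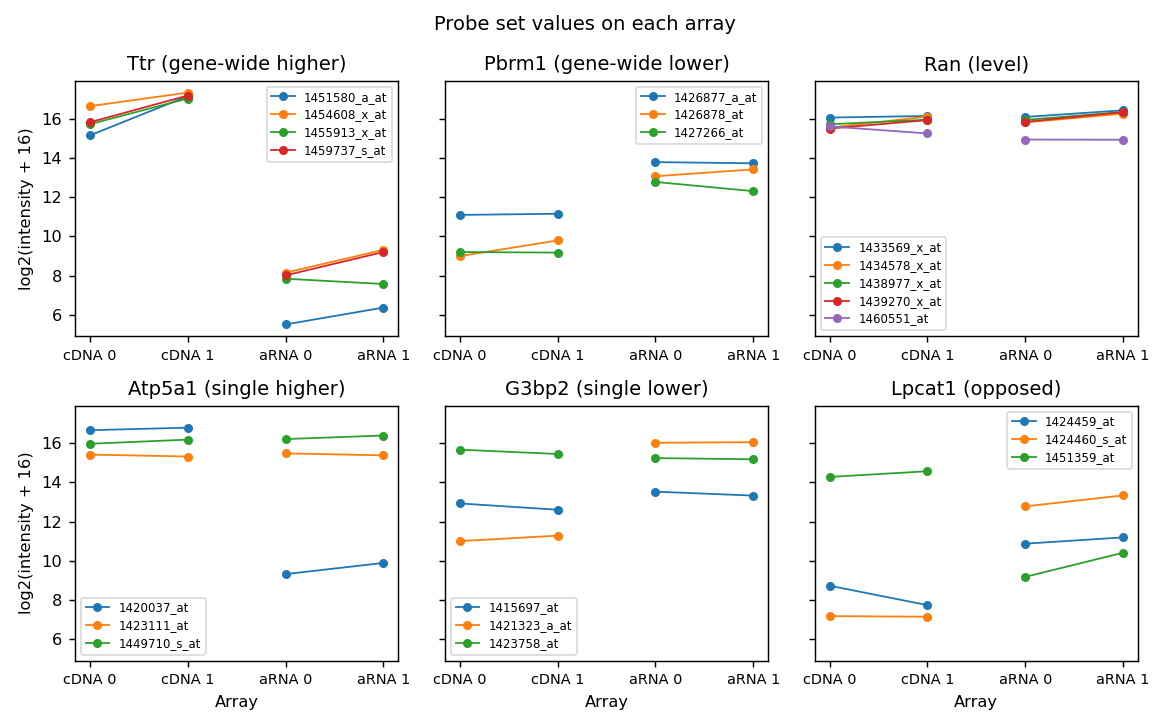
log2(intensity + 16) of each probe set (coloured lines) on the 4 arrays (x axis) for a gene of each pattern. In Ttr and Pbrm1 every probe set shifts between cDNA and aRNA, in Ran none does by 1 or more, in Atp5a1 and G3bp2 a single probe set moves, and in Lpcat1 the probe sets cross.

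The 435 opposed genes had a median range of 3.97 between their highest and lowest probe set difference and a median SD of 1.89. In 374 of them probe sets were called in both directions, and in 85 both extremes reached 2. The gene test called 132 of the 435, against 34.8% of the genes with 3 or more probe sets and 39.9% of all genes. The pattern was read from the same contrast as the tests. Calls of probe sets in both directions were therefore largely fixed by the choice and add no support. By number of probe sets, the share of opposed genes was 18.1% with 3, 27% with 4, 38.4% with 5 and 54.4% with 6 or more, so it was larger where a gene had more probe sets that could disagree.

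Lpcat1, which acylates lysophosphatidylcholine, came first in the ranking that chose the 6 genes described here, which is by the smaller of a gene's 2 extremes. Probe set 1424460_s_at read 7.19 and 7.16 on cDNA and 12.78 and 13.34 on aRNA. Probe set 1451359_at read 14.28 and 14.57 on cDNA and 9.19 and 10.42 on aRNA. The first was lower on cDNA by at least 34.8-fold and the second higher by 24.6-fold, so the same arrays gave opposite answers on this gene.

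Myh9, the heavy chain of nonmuscle myosin IIA, had 1420172_at at 5.85 and 1420170_at lower by at least 10.7-fold (under background on cDNA array 0), with 1420171_s_at at 3.34 and 1417472_at at -1.12. Csnk2a2, a catalytic subunit of casein kinase 2, had 6 probe sets around a median of 0.11. The highest, 1419936_at, was at least 13.2-fold higher, since aRNA array 1 did not reach background there, and the lowest, 1429301_at, on both cDNA arrays (at least 6.13-fold lower). Cnpy2, an endoplasmic reticulum protein, had 1416507_at at 3.58 and 1459846_x_at under background on both cDNA arrays (at least 21.6-fold lower). Each of these 3 genes had probe sets called in both directions.

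Qars, the glutaminyl-tRNA synthetase, had 1453237_at higher by at least 12.1-fold, aRNA array 0 not reaching background, 1456213_x_at at -3.47 and 1423712_a_at at 0.03. Ckap4, a membrane protein of the rough endoplasmic reticulum, had 3 probe sets between 2.35 and 4.26 and 1426755_at lower by at least 7.8-fold (under background on cDNA array 1). Ckap4 was called higher on cDNA (gene values of 13.61 and 13.72 against 10.31 and 10.9, adjusted p = 0.000148 by limma) although 1 of its 4 probe sets was called lower. Without _s_at and _x_at probe sets, which leaves 2, the call was lost (median 0.19, adjusted p = 0.691 by limma).

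The 291 level genes had a median SD among probe sets of 0.47, and 18 of them had 5 or more probe sets. The gene test called 9. Gdi2, which keeps Rab GTPases soluble, had 6 probe sets from -0.76 to 0.89, and its gene value was 14.27 and 14.5 on cDNA against 14.42 and 14.16 on aRNA. Ran, the GTPase of nuclear transport, had 5 from -0.38 to 0.5 (15.56 and 15.86 against 15.74 and 16.16). In both genes the arrays of the 2 targets interleaved.

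Ppp2r1a, the scaffold subunit of protein phosphatase 2A, had 5 probe sets from -0.38 to 0.28. Anapc5, of the anaphase-promoting complex, had 5 from 0.02 to 0.88 (14.67 and 13.9 against 13.69 and 14.04). Most of these probe sets end in _x_at. Without cDNA array 1, Anapc5 was called higher (0.83, adjusted p = 0.0472 by limma).

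The calls of single probe sets were set beside those of the genes. Of the 6599 probe sets 3171 (48.1%) were called, against 44.1% of all 21901 tested (20.5% higher and 23.6% lower). At least 1 probe set was called in 1581 of the genes, exactly 1 in 562 and none in 275. Every probe set was called higher in 43 genes and lower in 54, and 488 genes had probe sets called in both directions.

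Where the probe set with the highest mean signal was called, in 1011 genes, the median of the gene's other probe sets lay on the same side in 594 (58.8%). The gene itself was called in that direction in 454 of the 1011, was not called in 504 and was called in the other direction in 53. A further 139 genes were called though this probe set was not.

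Probe sets that share a target accession, and may read different stretches of it, were compared with others. Of pairs of probe sets within a gene, 2026 carried the same target accession and had a median gap of 1.18, with the same sign in 57.8%. The 5365 pairs with different accessions had a median gap of 1.24 and the same sign in 54.9%. Over all 9208 pairs the median gap was 1.21 between targets, against 0.48 within cDNA and 0.38 within aRNA. The pairs share probe sets and are given as a description.

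The genes were also split by signal into 3 groups, dim, middle and bright. The median SD among probe sets was 1.08, 1.2 and 1.04 in that order, and 24.4%, 25.8% and 20% were opposed. Gene-wide higher genes numbered 21, 9 and 12 and gene-wide lower genes 10, 11 and 14.

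Some prefixes of the target accession went with more large differences on the cDNA side than others. This feature was looked at after the values had been seen. The platform annotation names a target accession for most probe sets. Prefix NM marks curated RefSeq transcripts, and many of the others mark expressed sequence tags. Of 67 probe sets with prefix C, 23.9% stood at 2 or above, as did 21.2% of 52 with AA, 15.2% of 92 with AU, 15.2% of 151 with AI and 13.8% of 224 with AW. The share was 6.9% of 725 with NM and 9.03% of all 6599. Other prefixes of expressed sequence tags lay on both sides of NM. Below it were 3.05% of 131 with BF, 3.45% of 145 with BQ, 5.76% of 347 with BG and 5.83% of 206 with BI. Above it were 9.81% of 1295 with BB, 9.74% of 626 with AV, 10.2% of 215 with BE and 7.75% of 387 with BM. Whether the share goes with the kind of record was not tested. The share at -2 or below ranged only from 1.92% with AA to 11.8% with BG, and was 8.7% over all.

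**Figure D5:**
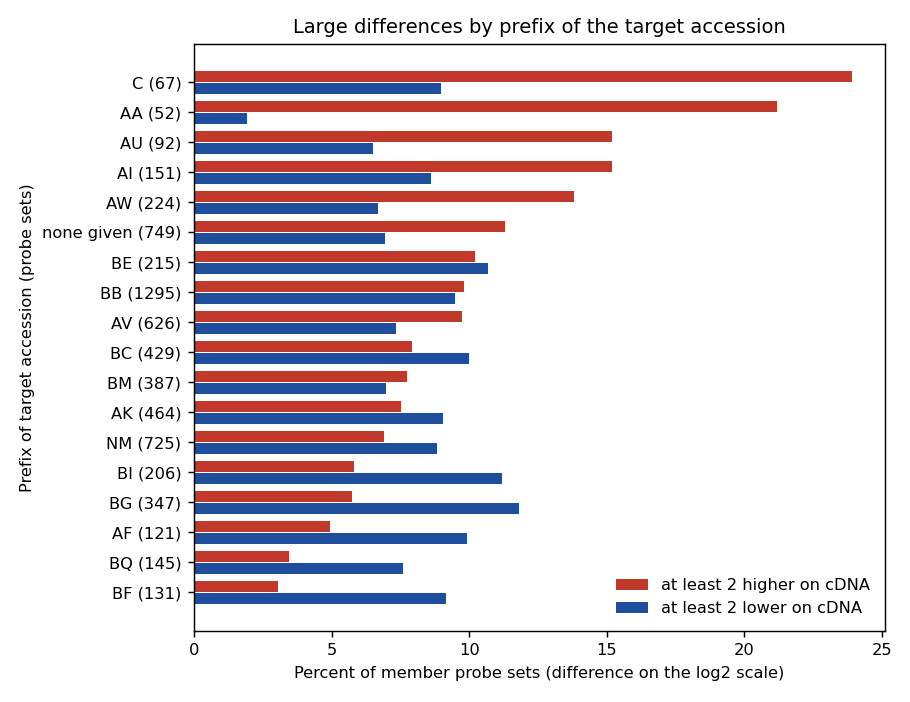
Percent of the probe sets of the 1856 genes that differed by at least 2 on the log2 scale (x axis), by the prefix of their target accession, with the number of probe sets in parentheses (y axis). Red bars are probe sets higher on cDNA and blue bars probe sets lower; the red share runs from 3.05% with BF to 23.9% with C.

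Differences of 4 or more were the most uneven. They made up 13.4% of the C and 13.5% of the AA probe sets, and 1.24% of NM. The probe set numbers were then binned by 1000, again after the values had been seen. Among bins with at least 50 of the 6599 probe sets, those with at least 5% at 4 or above were 1419000 to 1419999 (9.71% of 175), 1420000 to 1420999 (16.2% of 167) and 1449000 to 1449999 (8.97% of 156). They were chosen by this share, which is given as a description. They held 7.55% of the probe sets, 25.5% of the single probe sets higher on cDNA and 4.9% of those lower, among them those of Ptdss1, Atp5a1, Atp6v1e1 and Etf1. Among passing probe sets outside the 1856 genes, which did not enter the choice, 3.44% of 900 in these bins and 1% of 14402 in the other bins stood at 4 or above.

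Gene families were set by gene symbol. Counts are of members with 3 or more probe sets unless stated, against 14.1% called higher, 20.7% called lower and a median of -0.16 over the 1856 genes. Counts over every family gene with at least 1 passing probe set are given beside them, against 17.6% higher and 22.4% lower over all 11748 genes. Proteasome subunits had 5 members (1 higher, 2 lower), and over their 37 passing genes 2 were called higher and 16 lower. Of 24 heat shock and chaperone genes 10 were called lower and none higher, with a median of -0.58. Over the 74 passing genes of the family 29 were called lower and 12 higher. Hspa1b, an inducible Hsp70, stood lowest at -3.47, and Cct2 and Cct3, subunits of the chaperonin TRiC, at -1.14 and -1.02. These examples, and those that follow from the families and cell type lists, were chosen after their values were seen. Hspa8, the constitutive Hsp70, stood at 0.17 and was not called.

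Of 18 oxidative phosphorylation genes 9 were level, and 6 were called lower and 1 higher. Over the 84 passing genes 30 were called lower and 7 higher. The members' median SD among probe sets was 0.5, against 1.1 over all 1856 genes. Ndufs8, of complex I, was called lower with all 6 probe sets between -2.76 and -0.97. Atp5a1, described above, had the widest spread of the 18, with an SD of 4.19, followed by Ndufab1, the mitochondrial acyl carrier protein, which was opposed with probe sets from -1.25 to 4.39 (SD 2.58).

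Of 14 cytosolic ribosomal protein genes 3 were called higher and none lower, while over the 52 passing genes 9 were called higher and 8 lower. The 3 were Rps24 (median 3.1, range -0.82 to 3.69), Rpl35 (1.03, range 0.85 to 1.4) and Rps10, which had a single probe set effect (0.87, range -0.41 to 3.41). Ribosomal protein genes have many near-identical pseudogenes, so their probe sets may read more than the named gene. Of 20 synaptic vesicle and scaffold genes 3 were called higher and 4 lower (16 and 11 over the 69 passing genes); Cplx2 and Stxbp2, a syntaxin-binding protein, were gene-wide higher, while Syt11, a synaptotagmin, stood at -2.42.

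Of 21 hnRNP and SR splicing factor genes 1 was called higher and 5 lower (5 and 16 over the 47 passing genes), 6 were opposed and 5 had a single probe set effect. The 5 single effects, in Srsf1, Srsf2, Srsf3, Hnrnpa2b1 and Hnrnpk, were all higher on cDNA, at 2.2 to 3.1. Of 14 protein phosphatase subunit genes 2 were called higher and 5 lower (8 and 22 over the 63 passing genes). They included 8 opposed genes, among them Ppp1cb, a catalytic subunit, with probe sets from -1.22 to 4.82.

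Of 27 solute carrier genes 3 were called higher and 9 lower (43 and 54 over the 228 passing genes). The 3 were Slc2a1 and the scaffold proteins Slc9a3r1 and Slc9a3r2, which bear the family's name and are not transporters. Slc1a3, the glutamate transporter GLAST of astrocytes, was opposed, with probe sets from -2.28 to 3.46. Of the 3 widely used reference genes with enough probe sets, Sdha, a subunit of succinate dehydrogenase, was level (-0.7 to 0.02), and Pgk1, a glycolytic kinase, ranged from -1.26 to -0.01. Ywhaz, a 14-3-3 protein, spread 7 probe sets from -2.27 to 5.97.

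In Gfap, the astrocyte intermediate filament, the probe sets ranged from 0.51 to 5.79 around a median of 4.72, and the gene was called higher. Mbp, the myelin basic protein, had 8 probe sets between -1.47 and 0 and was not called. Xist had probe set differences of 0.23 to 7.26, and aRNA array 0 read lowest with each of its 3 probe sets.

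Members at the edge of the level limit were a matter of small differences in signal. The third brightest probe set averaged 8.5 in Olfm3, 8.502 in Wsb2 and 8.5028 in Bag4, just inside, and 8.4952 in Pde4b, 8.4884 in Sgk3 and 8.4863 in Tmem179b, just outside. Within 0.1 of the limit lay 61 genes inside and 63 outside. Of the 1856 genes, 842 had a further 1291 probe sets under the limit, which were left out.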

How the data were processed

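The deposited file holds 1 intensity per probe set and array on a linear scale, scaled by the authors to a common trimmed mean, as the equal trimmed means of the values show; the summary software and its settings are not given in the sources used here. Values were taken as log2(intensity + 16), without further normalization, and the 64 control probe sets were left out. The added 16 makes folds of dim probe sets too small. Gene symbols came from the platform annotation (34945 probe sets with 1 symbol, 932 with several and 9160 with none), updated through a RefSeq gene table in which 34741 were found. Probe sets with several symbols or none were not assigned to genes.

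limma 3.58.1 (under R 4.3.3) tested the differences, using lmFit, eBayes with a trend on signal, and a threshold of 0.05 after Benjamini-Hochberg adjustment, over 21901 probe sets and over 11748 genes, 2 arrays against 2. The scripts were tested on simulated data. Where a probe set was under background on the lower side, the fold is a lower bound against background (per array, the higher of background and the probe set's value). matplotlib 3.10.9 under Python 3.11.15 drew the figures.

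Named genes are the 10 largest gene-wide genes per direction, 5 single probe set genes per direction, 6 opposed genes, 4 level genes with the most probe sets, and the largest gene-wide member of each list; others are said to be chosen after their values were seen. The 10 per direction also had to pass the gene test, with gene values that did not overlap between the targets. The members, patterns and lists were chosen with earlier results of these data known. Only 2 arrays per target limit the precision of every value. Alternatives to pseudocount, filter, normalization, probe set kind, gene summary, trend, thresholds and replicates were tried.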

Additional observations from a re-analysis of the deposited data

How the results depend on the processing

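The 23 gene-wide genes named by rule kept their direction and their call under every alternative that gave them a value. They were chosen because every probe set differed by at least 1 in the same direction, so this was largely fixed by the choice. The other named genes, chosen for other patterns, did not all keep theirs. Of 685 values over the 43 named genes, 15 lost the call, 22 gained it and 18 turned direction, 2 of these in called genes. A value that turned was counted only as turned. Without _s_at and _x_at, the median difference turned in Adcy9 (-0.58), Atp5a1 (3.53), Cnpy2 (1.06), Csnk2a2 (-0.11), Gdi2 (-0.64), Lpcat1 (0.91), Myh9 (-1.12), Ppp2r1a (0.28), Ptdss1 (3.9) and Ran (0.5), where fewer probe sets are left. It also turned in Csnk2a2 with a pseudocount of 1 (-0.11), with median centring (-0.04), and without cDNA array 0 (-0.03) or 1 (-0.19), in Adcy9 with median centring (-0.06) and without aRNA array 1 (-0.08), in Ran without aRNA array 1 (0.01) and in Myh9 with no filter (-0.2). With 1 array left out at a time, the medians ranged from -0.19 to 0.47 in Csnk2a2, from -0.08 to 0.21 in Adcy9 and from -0.44 to 0.01 in Ran. The level limit was applied again under each setting, so the probe sets of a gene were not always the same. In Csnk2a2, 1419936_at fell under it with a pseudocount of 1 and without either cDNA array. Without either aRNA array, 1429301_at of Csnk2a2 fell under it. The calls lost were in Cnpy2, Qars, G3bp2 and Ckap4, and in Lpcat1 where it turned (adjusted p = 0.0705 by limma). Anapc5 gained a call without cDNA array 1 (0.83). With the mean over probe sets Atp5a1, Atp6v1e1, Dpysl3, Etf1, Ptdss1 and Tmsb10 gained it. Without _s_at and _x_at, Dpysl3 and Tns1 gained it, as did Atp5a1 and Ptdss1, whose medians turned. Ptdss1 also gained it with median centring. Myh9 and Tmsb10 gained it under several settings, the replicate block among them (adjusted p = 0.0165 and 0.0211 by limma). Counts moved most with the limits that define them. Genes called higher numbered 141 without probe sets ending in _s_at or _x_at, 90 with 4 or more probe sets and 35 with 5 or more; genes called lower numbered 222, 137 and 45. These settings hold 1138, 678 and 230 genes in place of 1856. Gene-wide higher genes numbered 14, 11 and 4 under the same settings, 68 with no filter, 90 at a size of 0.5 and 25 at 1.5. Gene-wide lower genes numbered 17, 6 and 0, 59 with median centring, 128 at 0.5 and 11 at 1.5. Single probe set effects numbered 461 with no filter, 59 with 4 or more probe sets, 12 with 5 or more, 50 at a size of 0.5 and 406 at 1.5 for the other probe sets, and 348 and 78 with the single probe set at 1.5 and 3. Opposed genes numbered 264 with the filter at 9.5, 1314 with no filter, 222 and 101 with 4 or 5 or more probe sets, 880 at 0.5 and 201 at 1.5. The share of variance between genes was 14.6% with the filter at 8, 19.7% at 9.5, 10.4% with none, 7.3% without _s_at and _x_at and 19.2% with 4 or more probe sets. Where the number of genes did not change, the cause was not tested.

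Leaving out 1 array at a time, genes called higher ranged from 185 to 255 and lower from 243 (without aRNA array 0) to 351, gene-wide higher from 29 to 56 and lower from 34 to 50, single effects from 191 to 215, opposed from 459 to 468 and the share between genes from 15.4% to 19.5%. Probe sets called higher ranged from 3684 to 4017 and lower from 3458 to 4889. The lone array left in a preparation is then assumed to vary like the other. The array numbers were not shown to pair the arrays, since array 1 minus array 0 correlated at 0.0183 between preparations over the 6599 probe sets. With the number as a replicate block, 287 genes were called higher and 408 lower, and 4682 and 5381 probe sets. No alternative can separate the preparation from the RNA it was made from.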
